A study of Mus musculus with 8 samples.

Results

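The genes described here are the EGF receptor ligands and the ErbB receptors of the mouse lung, found in the count table by their symbols. They are 7 ligand genes (Ereg, Areg, Hbegf, Tgfa, Btc, Egf and Epgn) and 3 receptor genes (Egfr, Erbb2 and Erbb3), or 10 of the 22244 genes in the table. The set was selected on fold changes seen earlier in these same libraries, so its contrast is described here and not tested. Total RNA came from the right cranial lobe of wildtype adult males of the inbred strain C57BL/6J. There were 4 mice injected with naphthalene and 4 control mice labelled as without treatment. Naphthalene is an aromatic hydrocarbon that P450 enzymes of airway club cells turn into toxic products, and it serves to injure the airway lining. Neither dose nor vehicle nor sampling time is stated in the sources used, so the effects of naphthalene and of its injection cannot be told apart.

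EGF family ligands are made as membrane proteins, and metalloproteases cut most of them free. Amphiregulin, epigen, TGF-alpha and EGF bind the EGF receptor, and epiregulin, heparin-binding EGF and betacellulin also bind ErbB4. ErbB2 has no known ligand of its own, ErbB3 binds neuregulins and has little kinase activity, and both signal in pairs with other receptors of the family. In the airway and alveolus the pathway is known for its part in epithelial repair, migration and growth.

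Total counts ranged from 10743842 to 16792306 per library, and 14192 genes had enough counts to be tested. The lung markers were present, with Sftpc, the surfactant gene of alveolar type 2 cells, at 5162 to 7538 CPM over the 8 libraries. CPM here are read counts scaled by library size with the TMM method. Of 6 club cell markers 5 fell in naphthalene lungs, at the edgeR threshold given below. Over all tested genes 14.6% were called lower and 14.1% higher, which is the share to set beside each marker count. The summed level of the 6 club cell markers was 1712 to 3808 CPM in naphthalene lungs and 5637 to 11040.1 CPM in control lungs. Cyp2f2, the P450 that activates naphthalene, averaged 207 ± 71.1 CPM in naphthalene lungs and 1274 ± 394 CPM in control lungs (SD, n = 4 each). Of 6 ciliated cell markers 5 fell, with summed levels of 80.8 to 163 CPM in naphthalene lungs and 424 to 674 CPM in control lungs. All 6 markers of the transitional epithelial state rose, with summed levels of 935 to 1751 CPM in naphthalene lungs and 363 to 448 CPM in control lungs. In neutrophil markers control 3 stood apart from the other controls, with a sum of 390.3 CPM against 61.8 to 93.2 CPM, and the 4 naphthalene lungs had 206 to 496 CPM. In these bulk libraries fewer cells of a type and less RNA per cell cannot be told apart.

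Naphthalene lungs held more Ereg, Areg, Hbegf and Tgfa RNA than control lungs and less Btc RNA, while the 3 receptor genes did not pass the test in either direction. In edgeR's quasi-likelihood fit over all 14192 tested genes, at a Benjamini-Hochberg adjusted p below 0.05, 4 of the 6 tested ligands were higher and 1 was lower. Over all tested genes 14.1% were called higher and 14.6% lower, 28.7% in either direction. The same 4 ligands lay above, and the 1 below, all control values, while over all tested genes 13.9% lay wholly above and 14.7% wholly below, 28.6% in either direction. The seventh ligand, Epgn, was too low to test. The median log2 fold change was 0.96 over the 6 tested ligands, -0.09 over the 3 receptors and 0.01 over all tested genes. Leaving out control 3 and naphthalene 1 together, an alternative chosen after seeing the data, left 4 ligands higher, 1 lower and 0 receptors called.

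**Figure D1:**
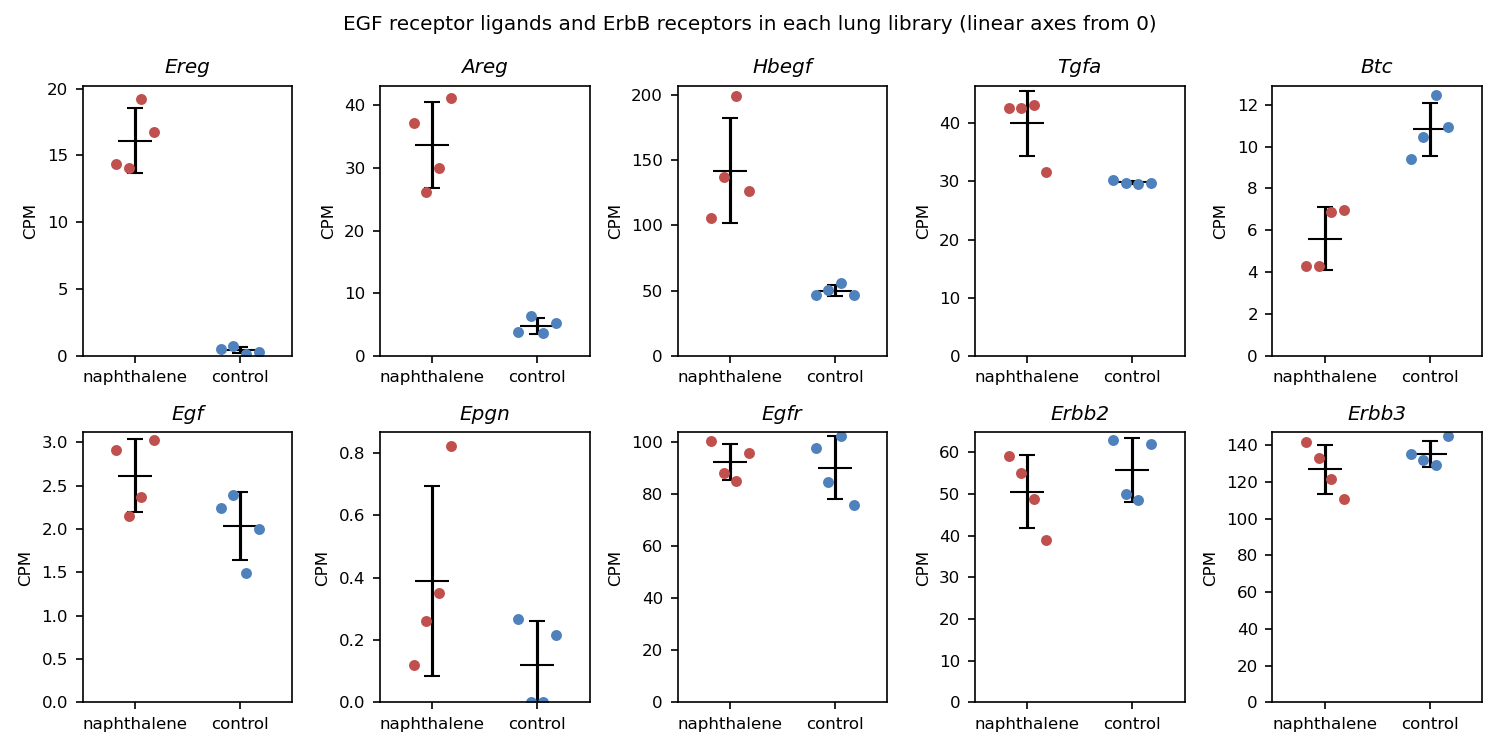
Levels of the 7 ligands and 3 receptors, in CPM on linear axes that start at 0, with a point for each of the 4 naphthalene libraries (red, left) and 4 control libraries (blue, right) and the group mean ± SD in black. The groups are apart for Ereg, Areg, Hbegf, Tgfa and Btc, and overlap for Egf, Epgn, Egfr, Erbb2 and Erbb3.

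Ereg encodes epiregulin, a ligand that is low in most resting epithelia. It had 14.3, 14.1, 19.2 and 16.8 CPM in naphthalene lungs 1 to 4, against 0.538, 0.726, 0.176 and 0.286 CPM in control lungs 1 to 4. In raw reads this was 183 to 241 counts per naphthalene library against 2 to 10 counts per control library, so the control level rests on few reads. The groups were far apart, with the lowest naphthalene lung many times above the highest control. The fitted log2 fold change was 5.17 (SE 0.34), a 36.0-fold difference and the largest among the ligands.

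Areg encodes amphiregulin, a ligand known in tissue repair that both epithelial and immune cells make. It had 37.2, 26.1, 30.05 and 41.2 CPM in naphthalene lungs, against 3.85, 6.39, 3.69 and 5.23 CPM in control lungs. All naphthalene values lay above all control values. The log2 fold change was 2.80 (SE 0.23), or 6.94-fold. Immune cells that can make amphiregulin include group 2 innate lymphoid cells and mast cells. Of 5 tested markers of these cells 0 rose and 2 fell, namely Cpa3 and Ms4a2, while 14.1% of all tested genes rose and 14.6% fell. The summed level of the whole marker list was 93.0 to 219 CPM in naphthalene lungs and 203 to 245 CPM in control lungs. Most of it was Kit, which other cells also express. Il13 and Mcpt8 were too low to test, and Il1rl1 lies on chromosome 1, whose genes are discussed with Erbb4. The part of any cell type in the level of Areg was not tested.

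Hbegf encodes heparin-binding EGF, which binds heparan sulfate at the cell surface. It had 105.4, 137, 199 and 126 CPM in naphthalene lungs, against 46.8, 50.7, 55.9 and 46.9 CPM in control lungs. The controls were close to each other, while the naphthalene lungs spread widely around 142 ± 40.4 CPM (SD, n = 4). The log2 fold change was 1.50 (SE 0.20), or 2.83-fold. Naphthalene lung 3 was the highest for Hbegf, for Ereg and for 5 of the 6 transitional epithelial markers, whose summed level was 1751 CPM in that lung. The other naphthalene lungs had 935 to 1239 CPM of the transitional markers. Among naphthalene lungs, number 3 was also the highest in summed club cell markers (3808 CPM) and, by little, in Tgfa. It was highest in summed neutrophil markers too (496 CPM, against 492 CPM in naphthalene 4). The part of any of these markers in the Hbegf level was not tested.

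Tgfa encodes TGF-alpha, a ligand of airway and alveolar epithelium. It had 42.7, 42.7, 43.1 and 31.7 CPM in naphthalene lungs, against 30.3, 29.8, 29.6 and 29.7 CPM in control lungs. Naphthalene 4 lay just above the controls, and the other naphthalene lungs well above them. The log2 fold change was 0.43 (SE 0.11), or 1.34-fold. This call was lost without naphthalene 2 (log2 fold change 0.39, edgeR quasi-likelihood adjusted p = 0.0528) and held without any other single library.

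Btc encodes betacellulin. It had 4.285, 4.305, 6.85 and 6.96 CPM in naphthalene lungs, against 9.41, 10.4, 12.5 and 10.96 CPM in control lungs. It was the only ligand called lower, with no overlap between groups, at a log2 fold change of -0.97 (SE 0.21). Control lungs had 1.95 times the naphthalene level.

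Egf, the founding ligand of the family, is expressed mainly in organs such as the kidney and salivary gland. It had 2.92, 2.15, 2.37 and 3.02 CPM in naphthalene lungs, against 2.24, 2.39, 1.49 and 2.01 CPM in control lungs. The groups overlapped, and Egf did not pass the test (log2 fold change 0.36, SE 0.18). Epgn encodes epigen and had 2, 4, 4 and 9 counts in naphthalene libraries, against 3, 0, 0 and 3 counts in control libraries. These are few counts in both groups, and no fold is given.

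The receptors differed little between groups. Egfr encodes the EGF receptor and had 100.2, 88.1, 85.0 and 95.9 CPM in naphthalene lungs, against 97.5, 84.6, 102.3 and 75.7 CPM in control lungs. The ranges overlapped almost fully. Its log2 fold change was 0.04 (SE 0.11), and the 95% interval from limma voom ran from -0.20 to 0.29.

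Erbb2, the partner without a ligand, had 59.2, 54.9, 48.7 and 39.0 CPM in naphthalene lungs, against 62.9, 50.0, 48.4 and 61.9 CPM in control lungs. Its log2 fold change was -0.14 (SE 0.16, voom 95% interval -0.45 to 0.17). Erbb3, the neuregulin receptor, had 142, 133, 122 and 111 CPM in naphthalene lungs, against 135, 132, 129 and 145 CPM in control lungs. Its log2 fold change was -0.09 (SE 0.09, voom 95% interval -0.31 to 0.11). For both genes naphthalene 4 was the lowest of the 8 libraries and the groups overlapped. These intervals leave room for small changes in either direction, and none of them reaches the size seen for Areg or Hbegf. A rise of the size fitted for Tgfa (log2 fold change 0.43, voom 95% interval 0.17 to 0.67) lies outside each of them. The Erbb2 interval reaches that size in the other direction. The Egfr interval overlaps that of Tgfa, so a smaller rise within both is not excluded.

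Erbb4, the remaining receptor of the family, was listed at 0 counts in every library, but this says nothing of its expression. It lies on chromosome 1, where 1138 of 1150 protein-coding genes in the table were at 0 in all 8 libraries. On the other chromosomes, without Y, 5.79% of protein-coding genes were at 0. None of the 10 members lies on chromosome 1, and on their chromosomes 4.91% were at 0.

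Levels of different genes can be compared only per length, and the following levels are CPM per kb of the longest transcript in GENCODE M21. In naphthalene lungs Hbegf stood highest at 49.1 ± 14.0, followed by Areg at 27.7 ± 5.62 and Erbb3 at 21.1 ± 2.25 (SD, n = 4). Areg and Erbb3 were within their spread of each other. Below them came Erbb2 at 10.1 ± 1.75, Egfr at 9.04 ± 0.681 and Tgfa at 8.84 ± 1.23, a group of 3 that did not differ beyond their spread. Ereg stood at 3.90 ± 0.584, Btc at 1.39 ± 0.374, Egf at 0.549 ± 0.0882 and Epgn at 0.221 ± 0.174.

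The order in control lungs was another one. Erbb3 was highest at 22.5 ± 1.17 CPM per kb, then Hbegf at 17.3 ± 1.48, Erbb2 at 11.1 ± 1.53 and Egfr at 8.82 ± 1.19, with Erbb2 and Egfr within their spread of each other. Tgfa followed at 6.59 ± 0.0682, Areg at 3.94 ± 1.04 and Btc at 2.69 ± 0.317. Egf stood at 0.427 ± 0.0828, and Ereg at 0.105 ± 0.0600 and Epgn at 0.0687 ± 0.0803 were lowest and within their spread. By these means Areg was the sixth gene of 10 in control lungs and the second in naphthalene lungs. The places of Egfr, Erbb2, Erbb3, Areg, Tgfa and Btc depended on the transcript length used. With the mean length of all annotated transcripts Egfr ranked 2 in naphthalene lungs and 1 in control lungs, in place of 5 and 4.

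Summed per length, the 7 ligands had 81.7, 83.4, 110.3 and 91.6 CPM per kb in naphthalene lungs, against 29.1, 32.7, 32.4 and 30.4 CPM per kb in control lungs. The 3 receptors had 45.2, 41.7, 38.3 and 35.6 CPM per kb in naphthalene lungs, against 44.6, 40.2, 41.1 and 43.9 CPM per kb in control lungs. The ratio of ligand to receptor RNA was 1.81, 2.0, 2.88 and 2.57 in naphthalene lungs, against 0.654, 0.813, 0.787 and 0.693 in control lungs. The groups did not overlap in this ratio, which does not depend on the scaling of the libraries. With mean transcript lengths the ratio averaged 1.95 ± 0.424 in naphthalene lungs and 0.740 ± 0.0644 in control lungs (SD, n = 4 each). No test was made of these sums, since the members were chosen with the contrast known.

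**Figure D2:**
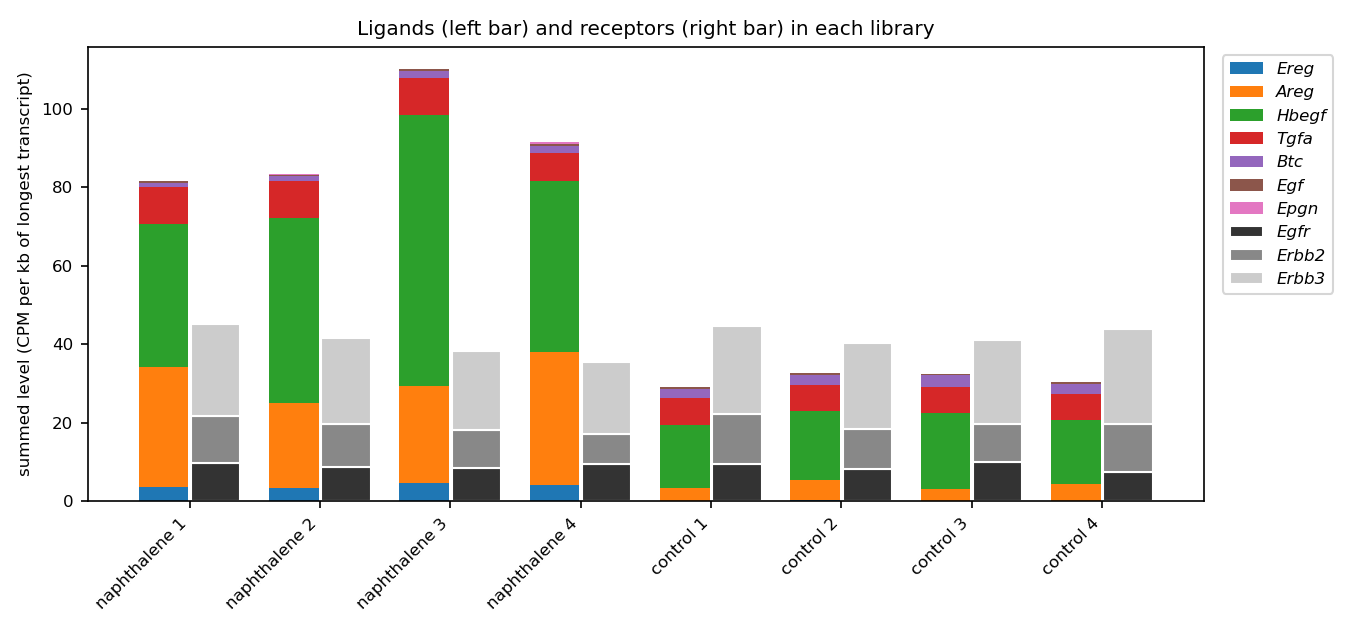
Summed levels of the ligands (left bar, coloured) and receptors (right bar, grey) in each library, in CPM per kb of the longest annotated transcript, with the naphthalene libraries first. The ligand bars reach 81.7 to 110.3 in naphthalene libraries and 29.1 to 32.7 in control libraries, while the receptor bars stay between 35.6 and 45.2 in all 8.

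The make-up of the ligand sum also differed. With the longest transcripts Hbegf made up 52.9 ± 8.22% of it in naphthalene lungs and 55.6 ± 2.93% in control lungs (SD, n = 4 each), the largest share in both groups. Areg made up 30.7 ± 7.72% in naphthalene lungs and 12.6 ± 3.05% in control lungs. Ereg had 4.25 ± 0.140% in naphthalene lungs and 0.336 ± 0.189% in control lungs. Tgfa had 9.78 ± 1.94% in naphthalene lungs and 21.2 ± 1.34% in control lungs, while Btc had 1.50 ± 0.282% in naphthalene lungs and 8.62 ± 0.780% in control lungs. Thus Tgfa RNA was higher in naphthalene lungs and still a smaller part of the ligand total. Among the receptors Erbb3 held 52.4 ± 0.607% of the sum in naphthalene lungs and 53.0 ± 2.15% in control lungs. These shares depended on the transcript length used. With mean lengths Areg made up 21.7 ± 6.04% of the ligand sum in naphthalene lungs and 7.64 ± 1.94% in control lungs, and Tgfa 15.8 ± 3.02% in naphthalene lungs and 29.3 ± 1.64% in control lungs. Ereg then had 2.99 ± 0.183% in naphthalene lungs and 0.203 ± 0.115% in control lungs, and Btc 2.06 ± 0.433% in naphthalene lungs and 10.1 ± 0.871% in control lungs. Areg and Ereg thus kept a larger, and Tgfa and Btc a smaller, mean share in naphthalene lungs with either length. The difference in Hbegf changed direction, with 56.4 ± 7.36% in naphthalene lungs and 50.9 ± 2.33% in control lungs. Among the receptors Egfr was then the largest, at 46.3 ± 3.70% in naphthalene lungs and 43.5 ± 4.74% in control lungs, and Erbb3 held 31.1 ± 1.25% in naphthalene lungs and 32.2 ± 2.46% in control lungs.

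Epgn, Ereg, Areg and Btc lie next to each other on mouse chromosome 5, in that order among protein-coding genes of the table. Hbegf lies on chromosome 18, Tgfa on 6, Egf on 3, Egfr and Erbb2 on 11 and Erbb3 on 10. Within the chromosome 5 group Ereg and Areg were higher in naphthalene lungs, Btc was lower and Epgn too low to test. Of the nearest protein-coding genes before the group, the neutrophil chemokine gene Cxcl1 rose, with 3.63, 0.978, 1.58 and 1.19 CPM in naphthalene lungs against 0.179, 0.435, 0.264 and 0.0716 CPM in control lungs. The groups did not overlap (edgeR quasi-likelihood adjusted p = 0.00383), and naphthalene 1 was the highest. In raw reads Cxcl1 had 61, 15, 18 and 13 counts in naphthalene libraries, against 2, 6, 3 and 1 counts in control libraries. Its control level thus rests on few reads. The chemokine gene Cxcl2 was too low to test. Mthfd2l, a gene of mitochondrial folate metabolism, averaged 10.7 ± 2.26 CPM in naphthalene lungs and 8.54 ± 2.07 CPM in control lungs, and did not pass (adjusted p = 0.245), though it did without control 3 and naphthalene 1 together (adjusted p = 0.0308).

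After the group, Parm1 fell, at 2.13 ± 0.941 CPM in naphthalene lungs and 4.60 ± 1.28 CPM in control lungs (adjusted p = 0.0270). Its call was lost without naphthalene 2, control 2 or control 4 (adjusted p 0.0593 to 0.0913). Rchy1, a ubiquitin ligase gene, averaged 46.1 ± 4.49 CPM in naphthalene lungs and 47.8 ± 2.24 CPM in control lungs and did not pass (adjusted p = 0.718). Odaph was too low to test. The genes next to each other on this stretch thus went in both directions.

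**Figure D3:**
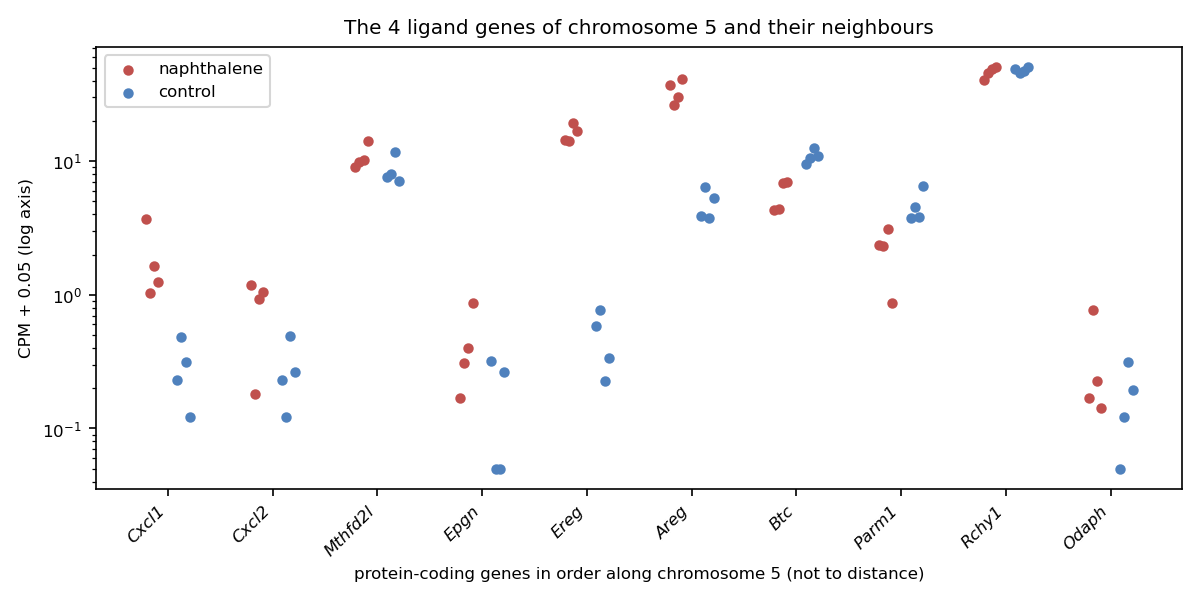
CPM + 0.05 on a log axis for the 4 chromosome 5 ligand genes and the 3 protein-coding genes of the table on each side, in chromosome order and not to distance, with a point per library (red naphthalene, blue control). Cxcl1, Ereg and Areg are higher in naphthalene libraries, Btc and Parm1 are lower by the test, and Mthfd2l and Rchy1 overlap.

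Areg and Btc are shown by their promoters because they sit in the same group of genes and differed in opposite directions. RefSeq promoter sequences on GRCm38.p6, another build than the mm39 named in the submitters' processing notes, were given for 7 of the 10 members, not for Ereg, Hbegf and Erbb3. The 250 bases before the start site are printed 5′ to 3′ on the strand of the gene, chr5:91139349-91139598 (plus strand) for Areg and chr5:91402995-91403244 (minus strand) for Btc. Capitals mark a cAMP response element (TGACGTCA) and a TATA box (TATAAA).
Areg: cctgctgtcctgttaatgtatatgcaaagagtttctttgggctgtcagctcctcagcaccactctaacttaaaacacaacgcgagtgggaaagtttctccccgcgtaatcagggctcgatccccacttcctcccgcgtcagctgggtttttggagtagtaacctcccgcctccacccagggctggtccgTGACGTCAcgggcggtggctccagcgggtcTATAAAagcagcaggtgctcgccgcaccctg
Btc: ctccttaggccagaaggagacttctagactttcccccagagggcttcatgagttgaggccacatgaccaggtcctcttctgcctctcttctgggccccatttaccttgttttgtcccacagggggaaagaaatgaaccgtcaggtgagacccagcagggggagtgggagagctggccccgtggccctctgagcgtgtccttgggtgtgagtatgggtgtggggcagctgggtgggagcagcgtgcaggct

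Both strands of each window, from 250 bases before to 50 after the start site, were searched for these letters and for an AP-1 site (TGANTCA) and the core of an antioxidant response element (TGACNNNGC). The Areg cAMP response element begins at -61 and its TATA box at -31, counted from the start site. Among the 7 members searched, Areg alone held TGACGTCA, which 1.79% of 32851 RefSeq promoter windows of this length hold. TATAAA was found in Areg and Epgn and in 13.6% of all windows. TGANTCA and TGACNNNGC were found in 0 of the 7 members, against 7.81% and 12.4% of all windows. These matches describe letters only and show no binding.

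The other genes of the pathway were read from the same fit over all genes. Among the neuregulins, ligands of ErbB3 and ErbB4, 1 of 3 tested genes rose and 0 fell, with a median log2 fold change of -0.03. The share over all tested genes was 14.1% higher and 28.7% in either direction, and 3 genes are few to set beside it. The gene that rose was Nrg1. It had 49.8, 54.9, 61.7 and 62.1 CPM in naphthalene lungs, against 29.0, 29.8, 41.6 and 29.0 CPM in control lungs. All naphthalene values lay above all controls, of which control 3 was the highest. The log2 fold change was 0.82 (SE 0.15, edgeR quasi-likelihood adjusted p = 0.00131).

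Of 12 genes that release ligands from the membrane or restrain that release, 4 rose and 0 fell, with a median log2 fold change of 0.16. Over all tested genes 28.7% were called in either direction, to which this count is close, and 14.1% were called higher. All 4 calls here were higher, a larger share than that, and no test of the list was made. Adam17, the main sheddase of amphiregulin, epiregulin, TGF-alpha and heparin-binding EGF, averaged 117 ± 10.9 CPM in naphthalene lungs and 119 ± 8.20 CPM in control lungs (SD, n = 4 each). Its log2 fold change was -0.02 (SE 0.08, adjusted p = 0.898). Adam10, the main sheddase of EGF and betacellulin, averaged 206 ± 24.4 CPM in naphthalene lungs and 203 ± 25.7 CPM in control lungs (adjusted p = 0.933). Adam17 and Adam10 fall outside the rule for named genes and are given for this role.

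The metalloprotease gene Adam8, known in leukocytes and injured epithelium, rose to 81.8, 78.6, 69.3 and 50.5 CPM in naphthalene lungs, against 26.0, 25.7, 23.6 and 31.1 CPM in control lungs. Timp3, which encodes an inhibitor of Adam17, rose to 1885, 2755, 2982 and 1954 CPM in naphthalene lungs, against 884, 994, 1144 and 880.1 CPM in control lungs. Neither gene's groups overlapped, and their log2 fold changes were 1.40 (SE 0.18) for Adam8 and 1.29 (SE 0.19) for Timp3 (edgeR adjusted p = 0.000117 and 0.000323). Adam12 also rose, by a log2 value of 0.78 (SE 0.24, adjusted p = 0.0173), with overlapping groups, and lost its call without control 2 (adjusted p = 0.0606). Adam12 also missed the threshold without control 3 and naphthalene 1 together (adjusted p = 0.0658). Adam9 rose by 0.32 (SE 0.09, adjusted p = 0.0298) and lost its call without naphthalene 3 or control 1, 2 or 4 (adjusted p 0.0734 to 0.0988). Without control 2, 2 of the 12 genes passed.

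Among 18 receptor adaptors and members of the Ras-ERK relay, 5 rose and 1 fell, with a median log2 fold change of 0.14. This count too is close to the 28.7% of all tested genes called in either direction. By direction the background was 14.1% higher and 14.6% lower. The 5 that rose are a larger share and the 1 that fell a smaller one, and no test of the list was made. Shc1, an adaptor that binds activated EGF receptor, averaged 149 ± 32.2 CPM in naphthalene lungs and 86.4 ± 1.24 CPM in control lungs (log2 fold change 0.79, SE 0.16, adjusted p = 0.00163). Hras, a Ras GTPase, averaged 54.9 ± 4.04 CPM in naphthalene lungs and 34.9 ± 2.46 CPM in control lungs (log2 fold change 0.65, SE 0.07, adjusted p = 0.000646). Ptpn11, the phosphatase that couples receptors to Ras, averaged 312 ± 26.0 CPM in naphthalene lungs and 210.0 ± 11.5 CPM in control lungs (log2 fold change 0.57, SE 0.07). Map2k1, a kinase that activates ERK, averaged 102 ± 1.12 CPM in naphthalene lungs and 80.5 ± 6.30 CPM in control lungs (log2 fold change 0.34, SE 0.06). In each of these 4 genes all naphthalene values lay above all control values.

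The gene of this list that fell was Mapk3, which encodes an ERK kinase (log2 fold change -0.46, SE 0.18, edgeR adjusted p = 0.0414). It was named after its values were seen, and its groups overlapped. Mapk3 lost its call without naphthalene 2, 3 or 4 or control 1, 2 or 4 (adjusted p 0.0757 to 0.115). Without naphthalene 1, or without it and control 3, 2 genes of this list were lower, Mapk3 and the adaptor gene Gab1, which was named after its values were seen.

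Of 10 tested genes of the PI3K relay 1 fell and 0 rose, with a median log2 fold change of -0.09. The 1 call of 10 is a smaller share than the 28.7% of all tested genes called in either direction. The gene that fell was Pik3cd, a catalytic subunit found mainly in leukocytes. It had 32.7, 21.8, 21.8 and 21.6 CPM in naphthalene lungs, against 41.1, 43.8, 36.8 and 42.5 CPM in control lungs. The groups did not overlap (log2 fold change -0.74, SE 0.16, adjusted p = 0.00339). Without naphthalene 4, 1 gene of this list, Akt1, passed as higher. Akt1 was named after its values were seen.

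Of 16 genes that inhibit ErbB receptors or take them off the surface, 1 rose and 1 fell, with a median log2 fold change of 0.06. This is a smaller share than the 28.7% of all tested genes called in either direction. Errfi1, whose product binds and inhibits the EGF receptor kinase, rose to 398, 428, 522 and 542 CPM in naphthalene lungs, against 168, 138, 248 and 187 CPM in control lungs. The groups did not overlap, and control 3 was the highest control. Its log2 fold change was 1.35 (SE 0.21, edgeR adjusted p = 0.000288). Lrig1, whose product lowers ErbB receptor levels, fell to 41.3, 30.5, 27.0 and 31.1 CPM in naphthalene lungs, against 64.5, 57.0, 53.7 and 74.5 CPM in control lungs. Its groups did not overlap either, and its log2 fold change was -0.94 (SE 0.17, adjusted p = 0.000923). Both calls held without any single library. Ptpn1, named after its values were seen, also passed as higher with DESeq2 and without naphthalene 4.

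**Figure D4:**
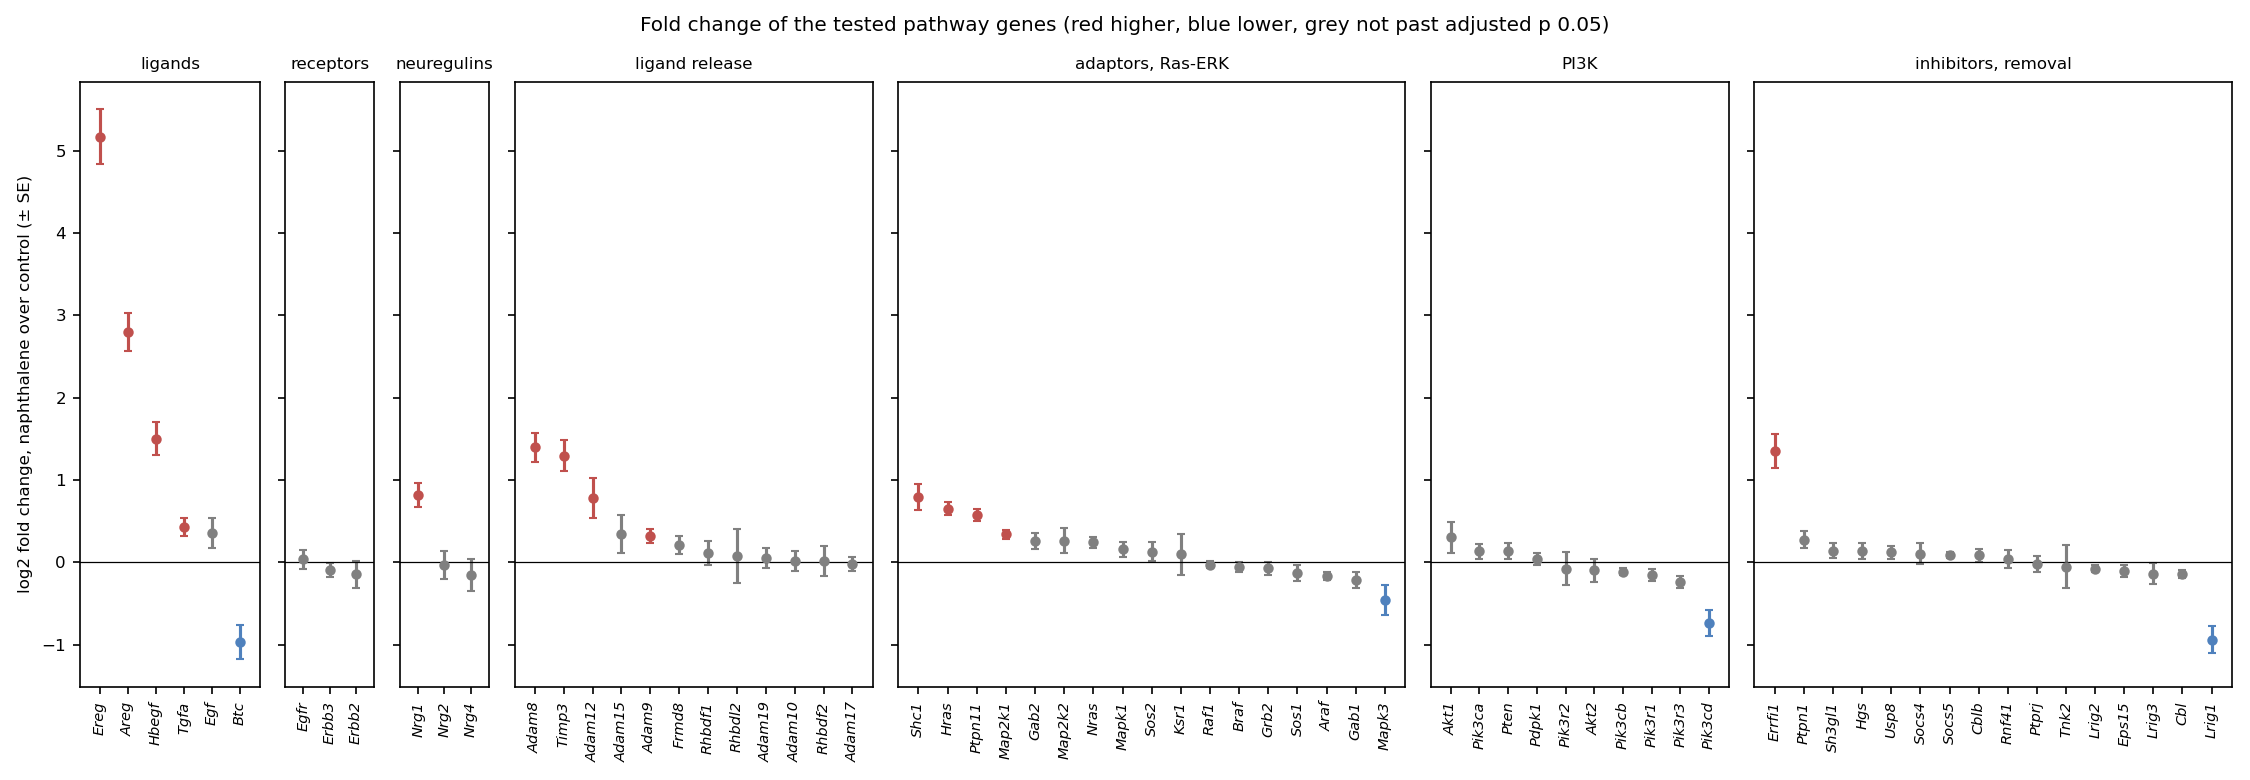
Log2 fold change (naphthalene over control, ± SE) of the tested genes in the 7 lists of the pathway, 1 Ras-ERK gene left out, red where called higher, blue where called lower and grey where the adjusted p of 0.05 was not met. Ereg and Areg lie above every other gene drawn, the 3 receptors lie near 0, and Errfi1 and Lrig1 lie on opposite sides.

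**Figure D5:**
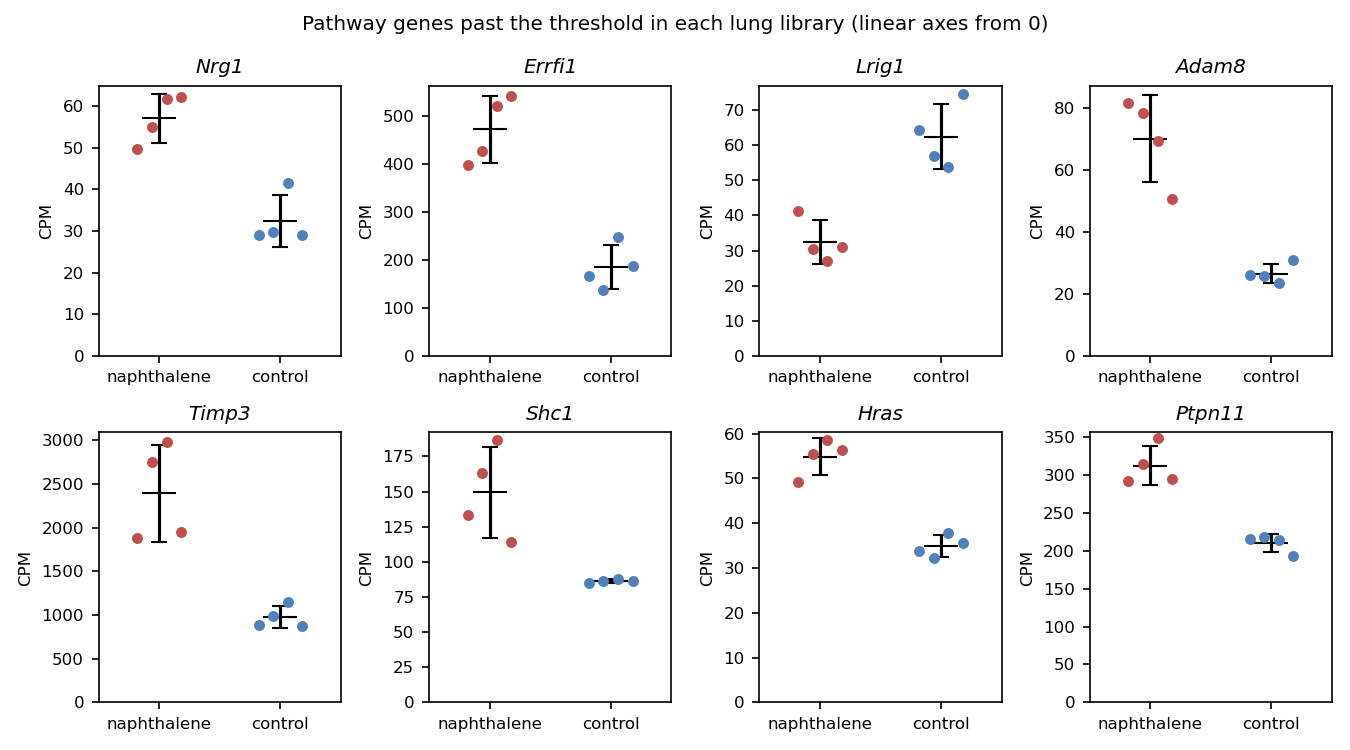
CPM of 8 other pathway genes in the 4 naphthalene (red, left) and 4 control libraries (blue, right), on linear axes from 0 with the group mean ± SD in black. The 8 were picked from called genes whose groups do not overlap, so the lack of overlap is no result. Over all tested genes 28.6% did not overlap. Among the called genes not drawn are Adam9 and Map2k1 (higher) and Pik3cd (lower), whose groups do not overlap. Adam12 and Mapk3, whose groups overlap, are not drawn either. Lrig1 is lower while the other 7 are higher in naphthalene libraries.

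The genes whose profiles lay closest to those of 3 ligands were found by the root mean square distance between log2 CPM profiles over the 8 libraries, each centred on its control mean, among 13754 other tested genes. For Hbegf the nearest were Krt7, a simple epithelial keratin, at a distance of 0.0796, Ppa1 at 0.117, Krt8, a keratin of the transitional state, at 0.129, Serpine3 at 0.148 and Blvrb at 0.157. Krt7 averaged 599.8 ± 133 CPM in naphthalene lungs and 216 ± 13.5 CPM in control lungs. For Areg they were Rnf151 at 0.400, the monocyte chemokine Ccl2 at 0.412, the urate transporter gene Slc22a12 at 0.440, Angptl4, a lipoprotein lipase inhibitor, at 0.447 and Dio2 at 0.450. Of these, Rnf151 had at most 1 count, Slc22a12 4 to 5 counts and Ccl2 3 to 10 counts in control libraries. Their fitted log2 fold changes were 4.30, 3.28 and 3.36, against 2.80 for Areg. The prior count of 2 in the log2 CPM shrinks such low levels, so their likeness to Areg is uncertain. Angptl4 averaged 122 ± 15.1 CPM in naphthalene lungs and 21.1 ± 3.95 CPM in control lungs. For Ereg they were Bsx, Syt8, Mroh4, Saa3 and Stpg3, at larger distances of 0.499 to 0.808. Of these, 4, all but Saa3, had at most 2 counts in any control library. The fitted log2 fold changes of the 5 genes were 6.86, 6.32, 8.21, 4.21 and 6.49, against 5.17 for Ereg. The prior count shrinks these low levels as well, so their likeness to Ereg is uncertain.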

How the data were processed

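The authors deposited raw counts, whole numbers of reads per gene symbol, for 8 lung libraries from stranded total RNA. The submitters' processing notes list mm39, featureCounts 2.0.6, Trim Galore 0.6.7, edgeR 4.2.1 and HISAT2 2.2.1. The annotation, the strand setting and the handling of multimapping reads are not stated there. Exons of Ereg, Tgfa, Egf and Erbb2 overlap genes on the opposite strand in GENCODE M21 (for Erbb2, Mien1, at 17.2 ± 2.49 CPM in naphthalene and 18.0 ± 2.90 CPM in control lungs), so their counts are uncertain if strand was not used.

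Library names tied each column to its sample, with 0 columns left over. The test was run with edgeR 4.0.16 under R 4.3.3 (TMM, filterByExpr with minimum count 10 and minimum total 15, quasi-likelihood test, group only), with Benjamini-Hochberg adjustment over 14192 genes. SEs are those of the difference in mean log2 CPM with a prior count of 2. Intervals came from limma 3.58.1. Within groups, chi-square over degrees of freedom for library pairs was 5.73 to 51.4, above that of 1 library sequenced again. This cannot show that each library came from its own mouse, and each was counted as 1 mouse. On simulated data for this comparison (14084 genes tested), 86% of 50 genes at a log2 change of 1 and 59.6% of 47 at -1 were recovered, with 13 false calls among 181.

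The members, lists and rules were chosen with earlier results of these data known. Named genes were all members, Scgb1a1 and Cyp2f2, up to 4 genes of smallest p past the threshold in each other pathway list (2 where none passed), the 5 nearest profiles for 3 ligands (unnamed models left out), and the 3 protein-coding neighbours on each side of the chromosome 5 group. Scgb1a1 averaged 1325 ± 643 CPM in naphthalene and 4785 ± 1564 CPM in control lungs. Markers of other cell types described here only by count were basal (0 of 2 tested passed), alveolar type 2 (2 of 6 higher), alveolar type 1 (3 of 6 higher), neutrophil (2 of 5 higher), monocyte and macrophage (2 of 5 lower), fibroblast (0 of 5), mesothelial (1 of 5 lower) and endothelial (1 of 6 lower). Beside these marker counts, 14.1% of all tested genes were called higher and 14.6% lower, and each list is short. Alternatives covered scaling, filtering, a replicate block, DESeq2 1.42.0, voom and each library left out. Same-numbered libraries share only a number. Some genes of the lists are not reported here.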

Additional observations from a re-analysis of the deposited data

Results flagged for a closer look

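In 92 groups of 4 libraries (46 named genes in 2 groups), 6 held a library whose gap to its nearest neighbour took up nearly the whole range of the group by Dixon's test. Chance gives about 1 in 20 such groups. Tgfa had 31.7 CPM in naphthalene 4, against 42.7 to 43.1 CPM in the other naphthalene lungs. Nrg1 had 41.6 CPM in control 3, against 29.0 to 29.8 CPM in the other controls. Ptpn11 had 192.9 CPM in control 4, against 214 to 218 CPM in the other controls. Pik3cd had 32.7 CPM in naphthalene 1, against 21.6 to 21.9 CPM in the other naphthalene lungs. Stpg3 had 0.0896 CPM in control 1, which is 1 count, against 0 in the other controls. Odaph had 0.717 CPM in naphthalene 2, against 0.0916 to 0.176 CPM in the other naphthalene lungs, all from few counts.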

How the results depend on the processing

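The count of 4 higher ligands held under each of the 16 alternatives except without naphthalene 2, where it was 3, and the 1 lower ligand and 0 called receptors held in all. For the receptors, all without a call, no alternative brought an adjusted p below 0.133. The number of genes past the threshold was 1397 to 2465 higher and 1513 to 2593 lower with a library left out. Egfr changed sign without naphthalene 1 (log2 fold change -0.0040) and without control 4 (-0.039), within -0.039 to 0.10 with a library left out. Rchy1 changed sign without naphthalene 1 (0.0093) and without control 3 and naphthalene 1 together (0.00058), within -0.097 to 0.0093 with a library left out. Genes that inhibit or remove receptors numbered 2 higher with the replicate block and with DESeq2, Ptpn1 being the added one, and 1 to 2 with a library left out. Ligand release genes numbered 2 to 5 higher, PI3K genes 0 to 1 higher and Ras-ERK genes 0 to 2 lower with a library left out, and 2 Ras-ERK genes were lower without control 3 and naphthalene 1 together. The cause was not tested. The replicate block gave 2074 higher and 2289 lower genes against 2005 and 2070. Same-numbered libraries correlated at 0.29, 0.03, 0.18 and -0.09 in their deviations, and not every library correlated best with its own number. Over 43 tested named genes and 685 gene values under alternatives, 664 kept direction and call. Depth limits Epgn and the control level of Ereg.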

Other observations

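Beside Erbb4, the genes Il1rl1, Cxcr2, Marco and Dpt of the lists used here lie on chromosome 1 and were at 0 counts in all 8 libraries. Il1rl1, Cxcr2, Marco and Dpt are markers of cells that the lung holds. Of 1150 protein-coding genes of chromosome 1 in the table, 98.96% were at 0, and on the other chromosomes without Y the share ranged from 0.399% on chromosome 15 to 20.6% on X. The cause was not tested, and genes of chromosome 1 could not be described.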
